A study of Mus musculus with 36 samples.

Results

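The 9 neural crest genes described here are the border factors Msx1, Msx2, Tfap2a and Tfap2b, the specifier factors Foxd3, Sox10 and Ets1, and the receptors Ngfr and Ret. They were taken by name from a table of 51734 gene symbols, and all 9 were found in it. RNA was measured in mouse E14 embryonic stem cells (ESC), a line derived from the early embryo, and in neural precursor cells (NPC) made from them with retinoic acid. Each stage held 3 lines with 3 libraries per line. WT is the wild-type line, dCD carries MLL3 and MLL4 that lack catalytic activity, and MLL2dTAG carries MLL2 fused to a degron, by which dTAG-13, a small molecule, has the tagged protein degraded. All 18 libraries, WT and ESC among them, are labelled as treated with dTAG-13. It was given at 2 µM from day 1 of differentiation, and NPC were collected on day 4. The labels give no duration for ESC. WT therefore shares the compound with the degron line, and no comparison isolates it. Each genotype is represented by 1 line, so a difference between genotypes cannot be told apart from a difference between lines, and the labels do not say whether the 3 libraries of a group came from separate cultures. The p-values then measure only the spread between these libraries, which may be technical.

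The neural crest is a cell population of vertebrate embryos that forms at the border between the neural plate and the surface ectoderm, leaves the neural tube and gives rise to peripheral neurons, glia, pigment cells and facial skeleton. In the usual account, signals at the border first switch on Msx and Tfap2 factors, these act with Pax3, Pax7 and Zic1 to switch on specifiers such as Foxd3, Ets1 and Sox10, and receptors such as Ngfr and Ret then mark migrating crest and its neural derivatives. Several of these genes also work elsewhere: Foxd3 is expressed in pluripotent cells, Msx1 and Msx2 in the dorsal neural tube, Ets1 in mesoderm and endothelium, Tfap2a in surface ectoderm, and Ret in motor neurons and kidney. MLL2, MLL3 and MLL4 are methyltransferases that place methyl groups on lysine 4 of histone H3, MLL2 mainly at promoters rich in CG dinucleotides and MLL3 and MLL4 mainly at enhancers.

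The promoters of Foxd3, Ngfr and Msx1 are shown because these 3 genes were higher in the ESC of both mutant lines, while in MLL2dTAG NPC Foxd3 and Ngfr were higher and Msx1 lower. Msx2 was also higher in the ESC of both lines, but its RefSeq window lies inside the annotated gene and gave no stretch upstream of the exons. The sequences come from RefSeq on GRCm38.p6, run 5′ to 3′ on the strand of the gene, end at the start of the gene's exons, and carry CG dinucleotides in capitals. Foxd3 lies at chr4:99656049-99656298 on the plus strand, Msx1 at chr5:37824586-37824835 on the minus strand, and Ngfr at chr11:95587736-95587948 on the minus strand.
Foxd3: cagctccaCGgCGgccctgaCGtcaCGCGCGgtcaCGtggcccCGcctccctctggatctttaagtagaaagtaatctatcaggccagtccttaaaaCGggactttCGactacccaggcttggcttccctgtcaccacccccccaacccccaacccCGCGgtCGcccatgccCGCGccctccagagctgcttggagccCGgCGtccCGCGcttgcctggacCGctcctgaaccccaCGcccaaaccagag
Msx1: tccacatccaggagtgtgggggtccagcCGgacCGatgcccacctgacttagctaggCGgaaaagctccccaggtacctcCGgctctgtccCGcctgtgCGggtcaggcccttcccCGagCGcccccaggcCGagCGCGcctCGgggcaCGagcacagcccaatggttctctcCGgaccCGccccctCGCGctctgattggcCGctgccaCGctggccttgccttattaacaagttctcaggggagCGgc
Ngfr: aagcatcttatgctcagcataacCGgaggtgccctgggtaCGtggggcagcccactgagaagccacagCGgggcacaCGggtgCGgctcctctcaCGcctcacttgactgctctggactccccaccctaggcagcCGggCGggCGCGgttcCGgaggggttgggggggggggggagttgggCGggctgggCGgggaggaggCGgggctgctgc
These stretches held 21, 20 and 14 CG dinucleotides in 250, 250 and 213 bases. RefSeq windows of 300 bases around the start were at hand for 6 of the 9 genes, with 2 windows for Tfap2a. The CG count was 29 for Msx1, 25 for Foxd3, 23 for Ngfr, 22 for Msx2, 11 and 15 for Tfap2a, and 8 for Tfap2b, against a median of 7 over 32851 windows. The Msx1 window had more CG than 87.1% of all windows and the Tfap2b window more than 51.4%. On either strand, CCAAT (in 37.4% of all windows) was found 2 times for Msx1 and 1 time for Msx2, and GGGCGG (35.7%) was found 4 times for Ngfr. None of the 7 windows held TATAAA (13.6% of all windows), GCCNNNGGC, a TFAP2 palindrome (16.6%), or AGGTCA, a half-site of the retinoic acid receptor (16.3%). A match describes the letters only, and the absence of one says nothing of a factor's binding.

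The libraries held between 19.4 and 46.0 mega counts (M) each, and every one of the 18 libraries was nearest to its own group. WT ESC replicate 2 stood apart from the other 2 WT ESC libraries, with a chi-square per degree of freedom of 10.5 and 8.38 against replicates 1 and 3, where all other replicate pairs gave 2.19 to 4.43. Without it, 7 of the 9 genes were called in dCD ESC (6 with it, Tfap2a being gained) and 7 in MLL2dTAG ESC (8 with it, Ets1 being lost), and the other calls against WT in ESC kept their direction. All 9 genes passed the filter on low counts, which kept 20511 genes, but Sox10 passed through its ESC libraries and Tfap2b through its NPC libraries, so their difference between stages is a description. Levels are given in CPM (counts per mega count of library total, after TMM scaling), and 3 counts, used as the floor for a count of 0, equal 0.0662 to 0.16 CPM in a single library. A gene was called when the edgeR quasi-likelihood test gave a Benjamini-Hochberg adjusted p under 0.05 over all 20511 genes. Tfap2b in ESC and Sox10 in NPC rested on 8 counts or fewer in every library.

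Cell type markers were set beside the labels. The summed level of 6 pluripotency markers was 1910 to 2490 CPM in ESC libraries, 22.3 to 22.8 CPM in WT NPC, 34.4 to 36.1 CPM in dCD NPC and 129 to 130 CPM in MLL2dTAG NPC. Pou5f1, which encodes OCT4, was at 1.01 ± 0.234, 1.27 ± 0.0276 and 26.9 ± 2.08 CPM (SD, n = 3) in WT, dCD and MLL2dTAG NPC, and Dppa3 was at 0 in all NPC. The summed level of 5 neural progenitor markers was 66.8 to 89.2 CPM in ESC, 135 to 138 CPM in WT NPC, 274 to 307 CPM in dCD NPC and 189 to 191 CPM in MLL2dTAG NPC. Most of it was Nes (91.2 CPM in WT NPC and 231 CPM in dCD NPC). From WT ESC to WT NPC Pax6 rose from 1.75 to 38.9 CPM, but Sox1 was at 3.05 and 3.1 CPM and Sox3 at 2.21 and 2.97 CPM. Sox1 was higher in dCD and MLL2dTAG ESC (9.15 and 11.7 CPM) than in any NPC group. Of further crest markers, Twist1, a factor of crest mesenchyme, was at 3.44 ± 0.394 CPM in WT ESC (SD, n = 3) and 26.1 ± 2.55 CPM in WT NPC, while Erbb3, the neuregulin receptor of crest and glia, was higher in WT ESC (64.9 ± 3.71 CPM, SD, n = 3) than in WT NPC (23.9 ± 0.754 CPM). In NPC, Sox10, the defining factor of migrating crest, had 0 to 8 counts per library, so "neural crest" is used here for the gene set and not for the cells.

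**Figure D1:**
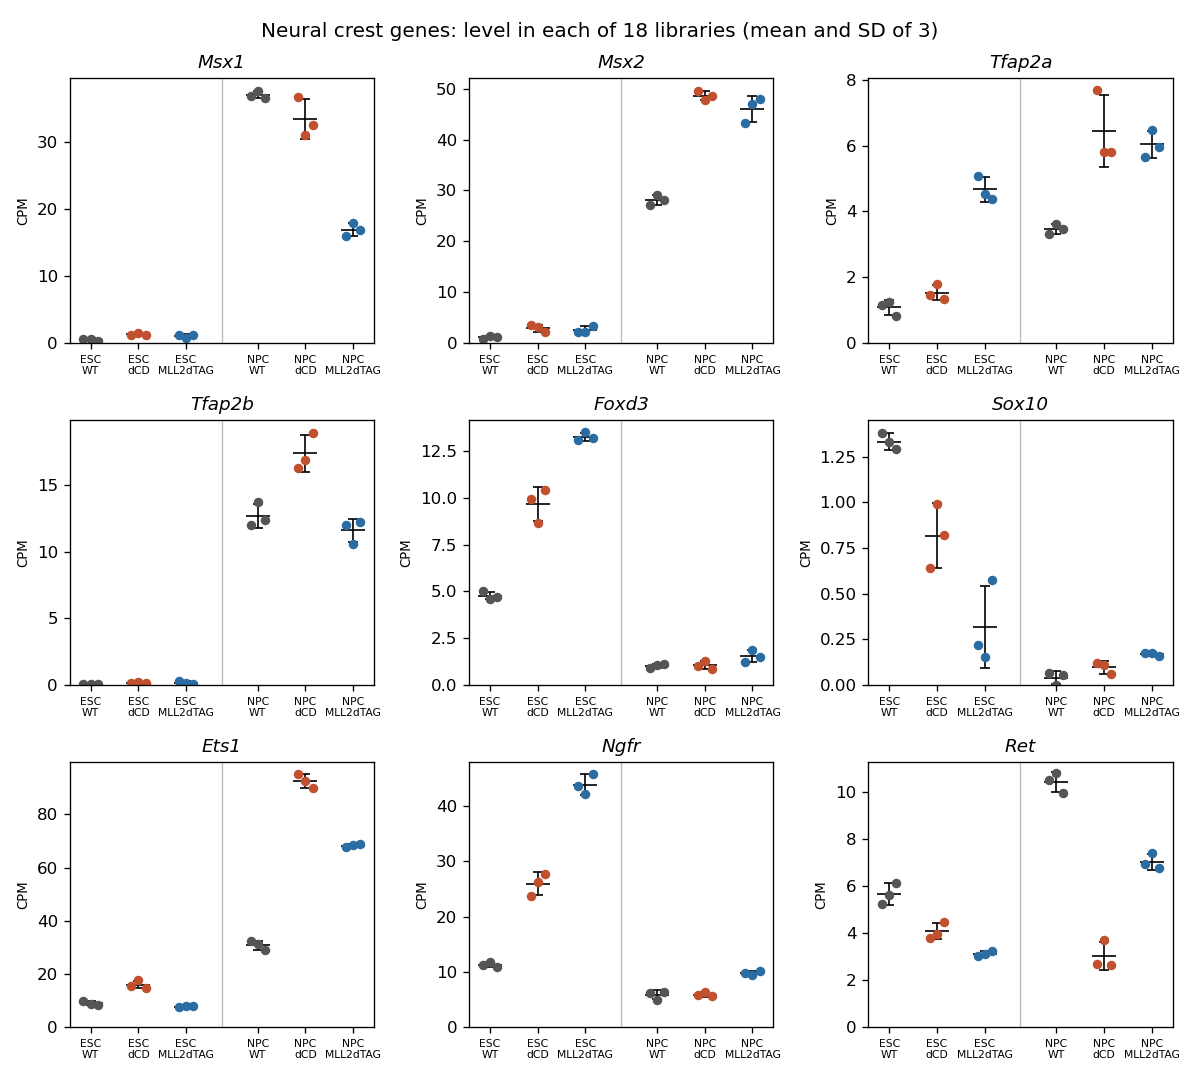
Level of each of the 9 genes in CPM (vertical axes, linear from 0, 1 scale per gene) in the 18 libraries, by stage and line; each point is 1 library, and bars give the mean and SD of 3. Msx1, Msx2 and Tfap2b sit far higher in NPC, while Foxd3, Ngfr and Sox10 sit higher in ESC.

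Differentiation of WT cells moved the 9 genes in different directions. Leaving aside Tfap2b and Sox10, which passed the filter through 1 stage, the other 7 genes were all called between WT NPC and WT ESC, against 79.5% of all tested genes. Of these, 5 were higher in NPC (Msx1, Msx2, Tfap2a, Ets1 and Ret; 39.1% of all genes were called higher) and 2 were lower (Foxd3 and Ngfr; 40.4% called lower). Tfap2b was higher in NPC and Sox10 higher in ESC, by their values alone. Per kilobase of exon, the order of levels in WT ESC ran from Ngfr (3.28 CPM per kilobase), Foxd3 (2.06) and Ets1 (1.06) down to Msx1 (0.17) and Tfap2b (0.0126). In WT NPC it ran from Msx1 (12 CPM per kilobase), Msx2 (8.6) and Ets1 (3.63) down to Foxd3 (0.441) and Sox10 (0.013). In bulk RNA of this kind, fewer cells of a type and less RNA per cell cannot be told apart.

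Against WT of the same stage, 6 of the 9 genes were called in dCD ESC, where 48.3% of all tested genes were called. Of these, 5 were higher (25.7% of all genes) and 1, Ret, was lower (22.6%). In MLL2dTAG ESC 8 were called (56.9% of all genes), 5 higher (28.7%) and 3 lower (28.2%). In NPC, 5 were called in dCD (53.5% of all genes), 4 higher (26.7%) and 1 lower (26.8%), and 8 were called in MLL2dTAG (61.7%), 6 higher (33.3%) and 2 lower (28.4%). The 6 higher include Sox10, which had 4 counts over the 3 WT NPC libraries. With 9 genes and backgrounds this high, the numbers of calls do not set the genes apart, and at each stage both comparisons use the same WT libraries. The median log2 fold changes of the 9 genes were 1.02 in dCD ESC, 0.98 in MLL2dTAG ESC, 0.45 in dCD NPC and 0.71 in MLL2dTAG NPC. Those of all tested genes were 0.02, 0, -0.02 and 0.03. The medians of the 9 genes were not tested and include values near the floor. In ESC these are Tfap2b (1.25 in dCD and 0.87 in MLL2dTAG), with 6 counts over the WT libraries. In NPC they are Sox10 (1.26 and 2.05), with 4. Between dCD and MLL2dTAG, 6 genes differed in ESC (47.2% of all genes), 3 higher in dCD (23.7%) and 3 lower (23.4%), and 6 differed in NPC (55.9%), 3 higher (24.3%) and 3 lower (31.6%).

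Msx1 encodes a homeodomain repressor of the border and dorsal neural tube. In WT NPC its libraries gave 36.9, 37.6 and 36.6 CPM, in dCD NPC 36.7, 31 and 32.5 CPM, and in MLL2dTAG NPC 15.9, 17.9 and 16.9 CPM. The MLL2dTAG libraries lay below all others and did not overlap them, while dCD overlapped WT. The log2 fold change in MLL2dTAG NPC was -1.13 (SE 0.08, adjusted p = 4.1e-15), a 2.18-fold lower level, and in dCD NPC it was -0.15 (95% interval -0.3 to 0, adjusted p = 0.085). In dCD the call depended on the fit: halved counts gave -0.158 (adjusted p = 0.02), and leaving out dCD NPC replicate 1, the library nearest to WT, gave -0.223 (adjusted p = 0.02), the lowest of a range of 0.02 to 0.34. The direct comparison of dCD with MLL2dTAG in NPC gave 0.98 (SE 0.08, adjusted p = 3e-13).

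In ESC, where Msx1 is scarce, the direction was the opposite. WT ESC libraries gave 0.639, 0.597 and 0.34 CPM (10 to 18 counts each), dCD 1.15, 1.57 and 1.16 CPM, and MLL2dTAG 1.14, 0.683 and 1.2 CPM. Every mutant library was above every WT library, though MLL2dTAG replicate 2 only narrowly. The log2 fold changes were 1.33 in dCD (SE 0.28, adjusted p = 0.00018) and 0.98 in MLL2dTAG (SE 0.28, adjusted p = 0.0036). Without WT ESC replicate 3, the lowest of the group, the MLL2dTAG value was 0.72 (adjusted p = 0.052, range over 14 alternatives 0.00057 to 0.052) and no longer passed. The change from WT ESC to WT NPC was 71.9-fold (log2 6.17, SE 0.15).

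Msx2, the close relative of Msx1, was the only one of the 9 genes called higher in all 4 comparisons of a mutant line with WT. WT NPC libraries gave 27.2, 29.2 and 28.2 CPM, dCD 49.6, 47.8 and 48.6 CPM, and MLL2dTAG 43.2, 47.1 and 48 CPM. The mutant lines overlapped each other and both lay above WT, with log2 fold changes of 0.79 in dCD (SE 0.07, adjusted p = 1.9e-11) and 0.71 in MLL2dTAG (SE 0.07, adjusted p = 1.3e-10). Between dCD and MLL2dTAG in NPC the difference was 0.08 on the log2 scale (95% interval -0.07 to 0.22, adjusted p = 0.38). A fit on those 2 groups alone gave 0.133 and an adjusted p of 0.015, within a range of 0.015 to 0.79. In ESC, WT gave 0.852, 1.29 and 1.22 CPM, dCD 3.54, 3.11 and 2.16 CPM and MLL2dTAG 2.23, 2.27 and 3.45 CPM, again with no mutant library in the WT range. The ESC changes were 1.32 in dCD (SE 0.21, adjusted p = 2e-06) and 1.22 in MLL2dTAG (SE 0.20, adjusted p = 3e-06). Thus in MLL2dTAG NPC Msx1 fell while Msx2 rose.

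Tfap2a encodes the transcription factor AP-2 alpha, needed at the border and in surface ectoderm. In WT ESC it gave 1.17, 1.26 and 0.816 CPM, in dCD 1.45, 1.78 and 1.34 CPM, and in MLL2dTAG 5.09, 4.53 and 4.39 CPM. The MLL2dTAG level was 4.32-fold that of WT (log2 2.11, SE 0.19, adjusted p = 5.5e-12) and exceeded even WT NPC, at 3.32, 3.62 and 3.46 CPM, with no overlap. In dCD ESC the log2 value was 0.50 (adjusted p = 0.074), and without WT ESC replicate 2 it was 0.664 (adjusted p = 0.046, range over alternatives 0.046 to 0.34). The lines differed in ESC, with dCD against MLL2dTAG at -1.61 (SE 0.18, adjusted p = 1.4e-09). In NPC, dCD gave 7.7, 5.82 and 5.81 CPM and MLL2dTAG 5.67, 6.49 and 5.95 CPM, changes of 0.89 (SE 0.14, adjusted p = 1.4e-06) and 0.80 (SE 0.14, adjusted p = 5.7e-06) on the log2 scale. There the mutant lines overlapped, with a difference of 0.09 (95% interval -0.18 to 0.35). Exons of Tfap2a overlap 3 antisense genes in the GENCODE annotation, of which Gm26688 shares 380 of 4903 bases and had 56 counts over the 18 libraries, against 2388 for Tfap2a. The strand setting of the counting is not given by the labels or files used.

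Tfap2b, which encodes AP-2 beta, went from 2 counts in each WT ESC library to 12, 13.7 and 12.4 CPM in WT NPC. In dCD NPC it gave 16.3, 16.9 and 18.9 CPM, above every WT library, a log2 fold change of 0.45 (SE 0.10, adjusted p = 0.00017). MLL2dTAG NPC, at 12, 10.6 and 12.2 CPM, overlapped WT (-0.14, 95% interval -0.34 to 0.06, adjusted p = 0.23). Upper quartile scaling (-0.228, adjusted p = 0.047) and a fit on the 2 groups alone (-0.19, adjusted p = 0.036) took that value past the threshold, in a range of 0.036 to 0.61 over alternatives. In ESC, 6 counts over the WT group and 14 over each mutant group allowed no call (adjusted p = 0.13 in dCD and 0.28 in MLL2dTAG). A change of Tfap2b in ESC was not detectable at this depth.

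Foxd3 encodes a forkhead repressor that specifies the crest and also maintains pluripotent cells. Here its highest levels were in ESC. WT ESC gave 5, 4.61 and 4.72 CPM, dCD 9.95, 8.66 and 10.4 CPM, and MLL2dTAG 13.1, 13.5 and 13.2 CPM. The 3 lines formed separate steps with no overlap, and the log2 fold changes against WT were 1.02 (SE 0.13, adjusted p = 3.9e-08) in dCD and 1.48 (SE 0.13, adjusted p = 1.8e-12) in MLL2dTAG. MLL2dTAG exceeded dCD as well, with dCD against MLL2dTAG at -0.45 (SE 0.12, adjusted p = 0.0013). In WT NPC the level fell to 0.886, 1.07 and 1.12 CPM, a log2 change of -2.21 (SE 0.17). In NPC, dCD overlapped WT (0.07, 95% interval -0.36 to 0.5), and MLL2dTAG gave 1.25, 1.88 and 1.49 CPM, just above WT, with 0.60 (SE 0.19, adjusted p = 0.0075). That call rested on 1 library, since without MLL2dTAG NPC replicate 2 the value was 0.416 (adjusted p = 0.1, range over alternatives 0.0026 to 0.1). The comparison of dCD with MLL2dTAG in NPC was -0.53 (adjusted p = 0.018), and it did not pass without dCD NPC replicate 3 (-0.405, adjusted p = 0.11) or without MLL2dTAG NPC replicate 2 (-0.348, adjusted p = 0.19). It also did not pass with no filter on low counts (-0.473) or in a fit on the 2 groups alone (-0.469), and its adjusted p ranged from 0.0065 to 0.19.

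Sox10 encodes the SOX factor that maintains migrating crest, glia and melanocyte precursors. It was near the floor in NPC, with 2, 0 and 2 counts in WT, 4, 4 and 2 in dCD and 6, 8 and 6 in MLL2dTAG. MLL2dTAG NPC was called higher than WT (log2 2.05, SE 0.77, adjusted p = 0.021), but the WT group held 4 counts in all, the fitted size depends on the prior count, and without WT NPC replicate 2, the library with 0 counts, the value was 1.46 (adjusted p = 0.12, range over alternatives 0.021 to 0.12). In ESC Sox10 was low but measurable. WT gave 1.38, 1.33 and 1.29 CPM (26 to 40 counts), dCD 0.64, 0.994 and 0.82 CPM, and MLL2dTAG 0.22, 0.155 and 0.574 CPM, in non-overlapping steps downwards. The log2 fold change was -2.01 in MLL2dTAG (SE 0.43, adjusted p = 0.00015), and -2.82 without MLL2dTAG ESC replicate 3, the highest of its group. In dCD it was -0.70 (SE 0.40, adjusted p = 0.16). The difference between dCD and MLL2dTAG in ESC, 1.31 (adjusted p = 0.017), was lost without dCD replicate 2 (1.15, adjusted p = 0.074), without MLL2dTAG replicate 1 (1.12, 0.071) or without MLL2dTAG replicate 2 (0.98, 0.1), and was 2.12 without MLL2dTAG replicate 3, with adjusted p from 0.002 to 0.1 over alternatives. The order of the 3 ESC group means, WT, dCD and MLL2dTAG from high to low, was the opposite of that of Foxd3.

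Ets1, an ETS factor of cranial crest and endothelium, showed the largest rise of the 9 genes in dCD NPC. Its libraries gave 32.2, 31.2 and 29 CPM in WT NPC, 95.2, 92.6 and 90.1 CPM in dCD and 67.7, 68.5 and 68.7 CPM in MLL2dTAG. No 2 lines overlapped in NPC, and the changes against WT were 3.01-fold in dCD (log2 1.59, SE 0.05, adjusted p = 7.4e-24) and 2.22-fold in MLL2dTAG (log2 1.15, SE 0.05, adjusted p = 4.6e-20). dCD exceeded MLL2dTAG by 0.44 (SE 0.05, adjusted p = 1.1e-09). In ESC the lines parted: WT gave 9.74, 8.86 and 8.33 CPM, dCD 15.5, 17.6 and 14.8 CPM, and MLL2dTAG 7.58, 7.76 and 7.81 CPM. dCD was higher than WT (0.84, SE 0.08, adjusted p = 3.6e-11). MLL2dTAG was slightly lower (-0.20, SE 0.08, adjusted p = 0.039), a call lost under RLE scaling (adjusted p = 0.053), with DESeq2 (0.053), with halved counts (0.083), with no filter (0.27) and in a fit on the 2 groups alone (0.078). It was also lost without WT ESC replicate 1 or 2 or any 1 of the 3 MLL2dTAG ESC libraries, with adjusted p from 0.063 to 0.16, and ranged from 0.01 to 0.27 over all alternatives.

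**Figure D2:**
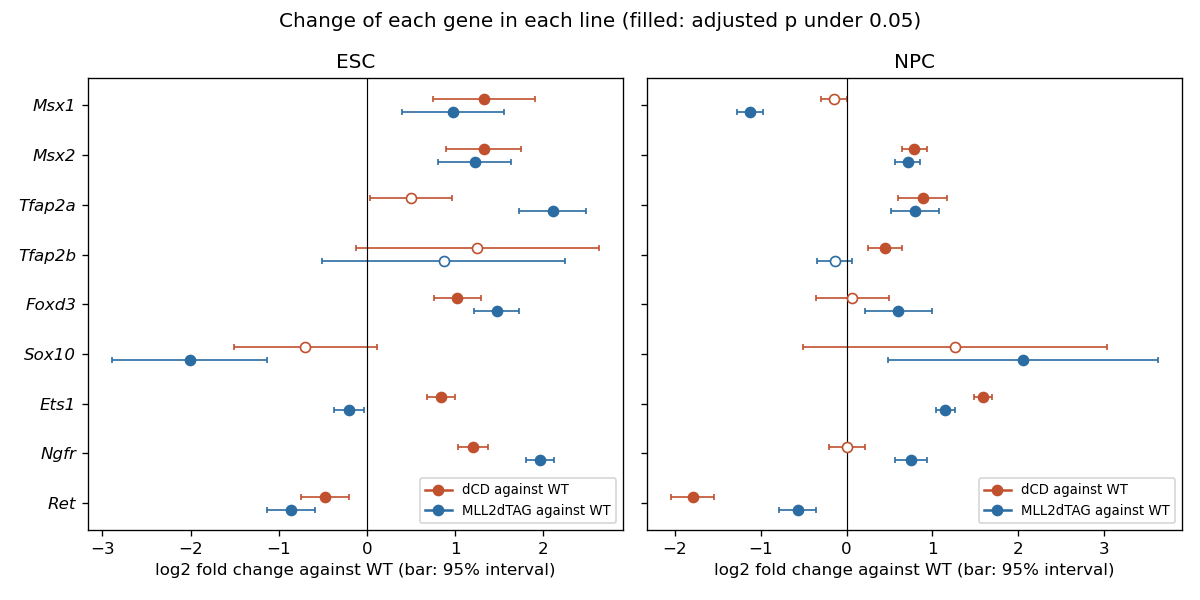
Log2 fold change of each gene in dCD and in MLL2dTAG against WT (horizontal axis) in ESC and NPC, with 95% intervals as bars and filled points for adjusted p under 0.05; n = 3 libraries per group. Msx2 lies to the right of 0 in all 4 comparisons and Ret to the left, while Msx1 changes side between stages in MLL2dTAG.

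Ngfr encodes p75NTR, the neurotrophin receptor by which crest cells are often isolated. As with Foxd3, its highest levels were in the ESC of the mutant lines. WT ESC gave 11.3, 11.8 and 10.8 CPM, dCD 23.7, 26.3 and 27.8 CPM, and MLL2dTAG 43.6, 42.2 and 45.9 CPM. The groups did not overlap, and the log2 fold changes were 1.20 in dCD (SE 0.08, adjusted p = 3.4e-14) and 1.96 in MLL2dTAG (SE 0.08, adjusted p = 3.5e-21), with dCD below MLL2dTAG by a log2 value of -0.76 (adjusted p = 5.1e-11). In NPC, WT gave 6.24, 4.95 and 6.42 CPM and dCD 5.77, 6.32 and 5.54 CPM, which overlapped (0.01, 95% interval -0.2 to 0.22). MLL2dTAG NPC gave 9.82, 9.52 and 10.2 CPM, above both, with 0.75 against WT (SE 0.09, adjusted p = 1.1e-08). The higher level of dCD ESC was thus not seen in dCD NPC, where the interval excludes a rise of the size found in ESC.

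Ret, the receptor tyrosine kinase for GDNF family ligands and a gene of enteric crest, motor neurons and kidney, was the only one of the 9 called lower in all 4 comparisons with WT. WT NPC gave 10.5, 10.8 and 9.97 CPM, dCD 2.7, 3.7 and 2.64 CPM, and MLL2dTAG 6.94, 7.42 and 6.76 CPM. The 3 lines did not overlap, and dCD NPC fell to 3.45-fold below WT (log2 -1.79, SE 0.12, adjusted p = 7.1e-15), against -0.57 in MLL2dTAG (SE 0.11, adjusted p = 2.4e-05). In ESC WT was again highest but the 2 mutant lines changed places: WT gave 5.22, 5.64 and 6.12 CPM, dCD 3.8, 3.98 and 4.47 CPM, and MLL2dTAG 3.04, 3.1 and 3.24 CPM. The changes in ESC were -0.48 in dCD (SE 0.14, adjusted p = 0.0036) and -0.86 in MLL2dTAG (SE 0.13, adjusted p = 1.2e-06). WT cells raised Ret from ESC to NPC by 0.88 (SE 0.12), while the dCD NPC range overlapped that of MLL2dTAG ESC, the next group in the order of levels. The dCD against MLL2dTAG difference was -1.22 in NPC (SE 0.13, adjusted p = 1.9e-10) and 0.38 in ESC (adjusted p = 0.025). The ESC call was lost with no filter on low counts (0.348, adjusted p = 0.1), without dCD replicate 3 (0.311, 0.13), without MLL2dTAG replicate 1 (0.366, 0.06) and without MLL2dTAG replicate 2 (0.377, 0.057), in a range of 0.01 to 0.13.

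The change in a line was often not the same at both stages, as tested by the interaction, the log2 change in NPC minus that in ESC. For dCD it was called for 5 of the 9 genes (42.9% of all genes), 1 positive (20%) and 4 negative (22.9%). For MLL2dTAG it was called for 6 (49%), 2 positive (26.4%) and 4 negative (22.6%). Of the 2 positive values, 1 was that of Sox10 (4.05), which rests on 4 counts in WT NPC. Sox10 passed the filter through its ESC libraries, so its value is a description. Msx1, Foxd3 and Ngfr had negative interactions in both lines, and Ets1 had positive ones. Ret had a negative interaction in dCD (-1.31, SE 0.18, adjusted p = 2.9e-07), but in MLL2dTAG the value was 0.29 (95% interval -0.06 to 0.64). Tfap2a had one in MLL2dTAG (-1.31, SE 0.24, adjusted p = 1.9e-05), but in dCD the value was 0.39 (95% interval -0.17 to 0.94). Msx2 lay at the threshold in both lines (-0.54 and -0.51, adjusted p = 0.053 for each) and passed it under several other settings, with adjusted p from 0.0081 to 0.22 and from 0.011 to 0.41.

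**Figure D3:**
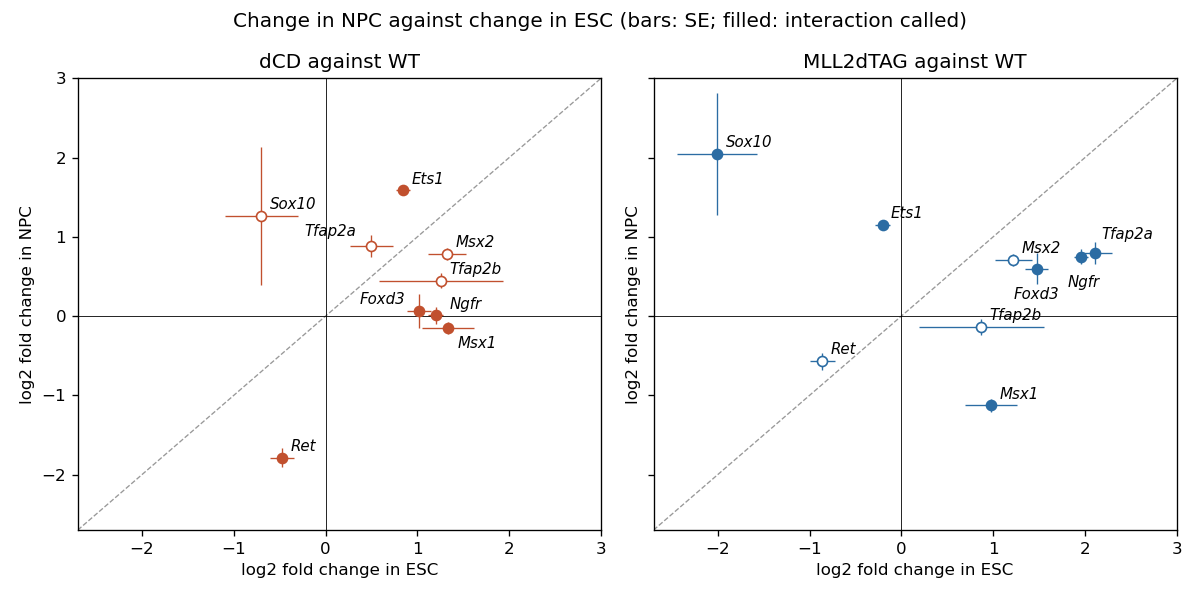
Log2 fold change against WT in NPC (vertical axis) against that in ESC (horizontal axis) for each gene in dCD and MLL2dTAG; bars are SE, filled points have an interaction with adjusted p under 0.05, and the dashed line marks equal change. Ets1 lies above the line in both lines, and Msx1, Foxd3 and Ngfr lie below it.

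Companion genes of the crest pathway were counted in lists by role. Of 9 other border genes, 5 rose and 3 fell in dCD ESC, 4 rose and 1 fell in MLL2dTAG ESC, 7 rose and 1 fell in dCD NPC, and 5 rose and 1 fell in MLL2dTAG NPC. Beside these stand 25.7% higher and 22.6% lower among all genes in dCD ESC, and 28.7% and 28.2% in MLL2dTAG ESC. The shares in NPC were 26.7% and 26.8% in dCD and 33.3% and 28.4% in MLL2dTAG. Of the rises in ESC, those of Pax3 (in dCD) and Zic1 (in both lines) start from 4 and 6 counts over the WT ESC libraries. Pax3, a paired factor of the dorsal neural tube, rose in dCD NPC from 6.05 ± 0.692 to 19.7 ± 1.12 CPM (SD, n = 3; log2 1.71, SE 0.13, adjusted p = 1.5e-13). Pax7, its relative, fell in both NPC lines, from 2.39 ± 0.516 CPM in WT to 0.897 ± 0.188 in dCD (-1.41) and 0.168 ± 0.0589 in MLL2dTAG (-3.79). Dlx5, a distal-less homeobox gene of the border, had 16 counts over the WT NPC libraries, 97 over dCD and 327 over MLL2dTAG. The log2 fold changes were 2.62 and 4.17. Dlx5 passed the filter on low counts through its mutant NPC libraries, where it is high, so these changes are a description. It is among the border genes counted as rising in both NPC lines.

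Of 10 delamination and migration genes, 8 rose and none fell in the ESC of either line, and 5 rose and 2 fell in dCD NPC, 7 and 2 in MLL2dTAG NPC. Among all genes, 25.7% were called higher and 22.6% lower in dCD ESC, and 28.7% and 28.2% in MLL2dTAG ESC. In NPC the shares were 26.7% and 26.8% in dCD and 33.3% and 28.4% in MLL2dTAG. The 2 median changes in ESC were 1.01 in dCD and 0.75 in MLL2dTAG. Cdh11, a cadherin of migrating crest and mesenchyme, rose in all 4 comparisons, from 9.82 ± 0.469 CPM in WT ESC to 37.1 ± 5.01 in dCD and 38 ± 0.77 in MLL2dTAG, and from 106 ± 4.52 CPM in WT NPC to 193 ± 5.79 and 229 ± 3.16. Itga4, an integrin subunit of migrating crest, went in opposite directions in NPC, from 4.67 ± 0.429 CPM in WT to 9.93 ± 1.52 in dCD (log2 1.08) and 0.267 ± 0.0588 in MLL2dTAG (-4.13, SE 0.24, adjusted p = 7.9e-17).

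Of the genes of crest derivatives, Ednrb, the endothelin receptor of melanoblasts and enteric crest, rose in dCD NPC from 22.5 ± 0.996 to 79.3 ± 4.03 CPM (log2 1.82, SE 0.07, adjusted p = 1.2e-22). Mitf, the master factor of pigment cells, rose in MLL2dTAG NPC from 3.08 ± 0.0938 to 10.8 ± 0.593 CPM (log2 1.82, SE 0.10, adjusted p = 3.1e-18). Its level was higher still in WT ESC, at 20.4 ± 1.81 CPM. The pigment genes Dct and Pmel were low in WT NPC (0.181 and 0.845 CPM) and in MLL2dTAG NPC (0.159 and 1.5 CPM). The rise of Mitf is thus not read as one of pigment cells.

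Among 16 ligands and partner receptors of Ret and Ngfr, 7 rose and 3 fell in dCD at each stage, 6 rose and 6 fell in MLL2dTAG ESC, and 4 rose and 8 fell in MLL2dTAG NPC. The 10 of 16 called in dCD compare with 48.3% of all genes in ESC and 53.5% in NPC, and the 12 of 16 called in MLL2dTAG with 56.9% and 61.7%, so the numbers of calls do not set this list apart. Artn, which encodes the Ret ligand artemin, was called lower in all 4, with -1.76 and -2.03 in dCD and MLL2dTAG ESC and -1.06 and -1.85 in dCD and MLL2dTAG NPC. Gdnf, which encodes the founding ligand of the family, had 52 counts over the WT NPC libraries and 10 over MLL2dTAG (-2.47, adjusted p = 9.3e-05). Ntrk3, a neurotrophin receptor that can pair with Ngfr, rose in dCD NPC by 1.94 (SE 0.11, adjusted p = 1.3e-16), and Ntrk2 fell in MLL2dTAG NPC (-2.19, SE 0.08, adjusted p = 1.2e-23). Of 8 tested relatives of the 9 genes, 4 rose and 1 fell in dCD ESC, and 4 rose and none fell in MLL2dTAG ESC. In NPC, 4 rose in dCD and 5 in MLL2dTAG, and none fell. Beside these stand 25.7% higher and 22.6% lower among all genes in dCD ESC, and 28.7% and 28.2% in MLL2dTAG ESC. In NPC the shares were 26.7% and 26.8% in dCD, and 33.3% and 28.4% in MLL2dTAG. Of the relatives that rose in ESC, Fli1 (in dCD) had 6 counts over the WT ESC libraries. Erg and Msx3 (in both lines) had 5 and 14. Msx3, the third Msx gene and one of the dorsal neural tube, rose in dCD NPC from 5.82 ± 0.127 to 29.1 ± 2.76 CPM (log2 2.32, adjusted p = 1.2e-17), a larger log2 value than that of Msx2.

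Markers of other cell types moved between the same groups. In NPC, the 5 endoderm markers summed to 203 to 211 CPM in WT, 175 to 183 CPM in dCD and 498 to 510 CPM in MLL2dTAG, and the 7 mesoderm markers to 96 to 101, 95.2 to 103 and 195 to 202 CPM. The 6 endothelial markers summed to 62.4 to 64.4, 44.9 to 48.4 and 218 to 223 CPM, most of it Kdr (59.5, 43.8 and 209 CPM), while Cdh5, which defines endothelium, was at 0.925, 0.732 and 4.52 CPM. Ets1, which endothelium and mesoderm also express, was higher in dCD NPC, where the endoderm and endothelial sums were below WT and the mesoderm sum overlapped it. The mesoderm markers did not move together there. Foxc1 was at 7 ± 0.735 CPM in WT and 17.7 ± 1.32 CPM in dCD, and Pdgfra at 62.8 and 64.6 CPM. Meox1 was at 9.6 and 2.59 CPM, Foxc2 at 16.2 and 13 CPM, and Tbx6 at 1.95 and 1.11 CPM, while T and Mesp1 were scarce in both. Ets1 was also higher in MLL2dTAG NPC, where all 3 sums were above WT. The 6 surface ectoderm markers, of cells that express Tfap2a, summed to 458 to 463 CPM in WT NPC, 325 to 334 CPM in dCD and 244 to 257 CPM in MLL2dTAG. Most of this was Krt18 (249, 183 and 115 CPM) and Krt8 (142, 112 and 106 CPM). Krt14 was at 4.62, 1.96 and 6.86 CPM and Trp63 at 2.58, 1.92 and 2.41 CPM, so the sum does not stand for every marker in it. The 5 neuron markers summed to 93.2 to 99.9, 218 to 235 and 115 to 118 CPM in the same 3 NPC groups. In WT ESC they summed to 355 to 436 CPM, most of it Stmn2 (327 ± 37.8 CPM, SD, n = 3). Foxd3, Ngfr and Sox10, which were higher in WT ESC than in WT NPC, were called higher in MLL2dTAG NPC, where the pluripotency sum was 129 to 130 CPM against 22.3 to 22.8 CPM in WT. Only the Ngfr call held throughout, since that of Foxd3 was lost without MLL2dTAG NPC replicate 2 and that of Sox10 without WT NPC replicate 2. The part of any of these cells in the results on the 9 genes was not tested.

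**Figure D4:**
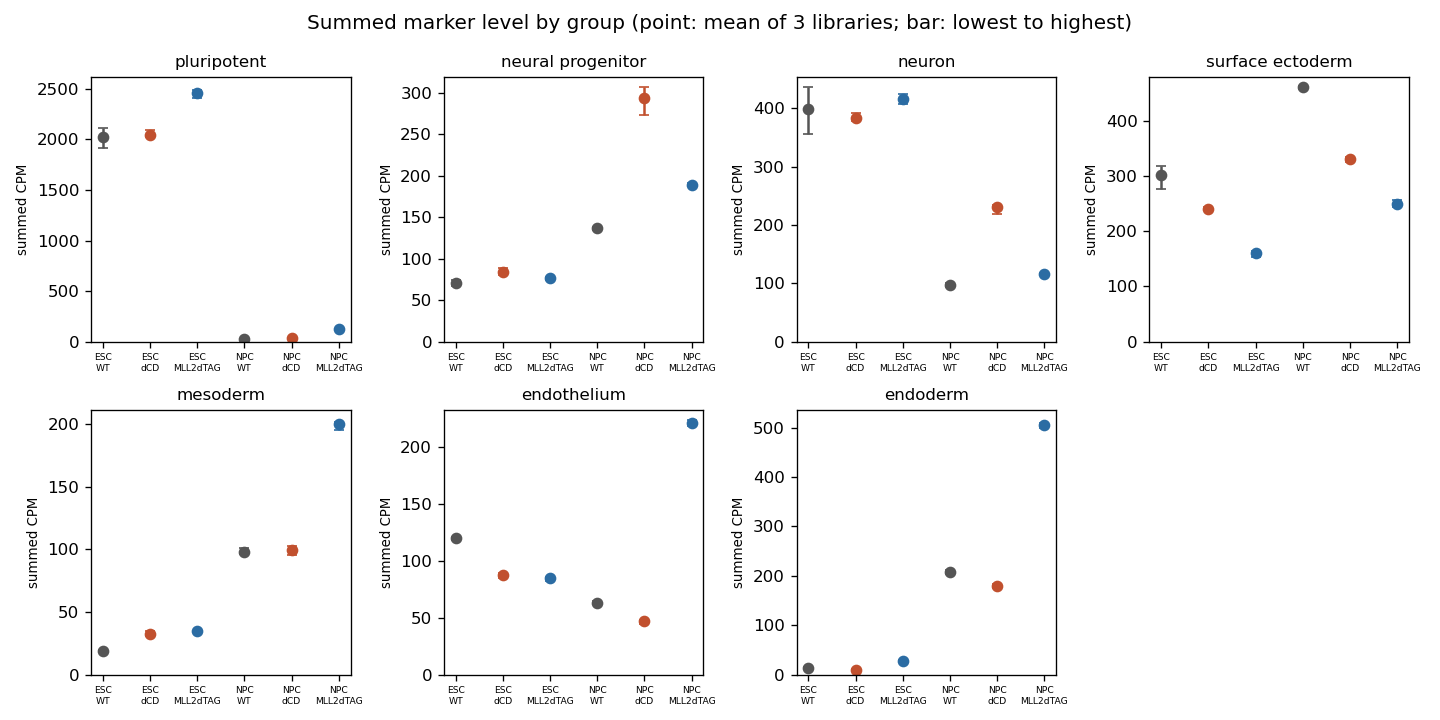
Summed level of 7 marker lists in CPM (vertical axis, from 0) in the 6 groups; points are means of 3 libraries and bars run from the lowest to the highest library. Endoderm, mesoderm and endothelial sums are highest in MLL2dTAG NPC, and the neural progenitor sum is highest in dCD NPC.

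For each gene, the 2 others with the highest Pearson's r of log2 CPM over the 18 libraries were named, from about 11236 genes averaging at least 5 CPM. A high r does not mean a like level or a like size of change. Trpc4ap, named for Tfap2b, had means of 121 CPM in WT ESC and 205 CPM in WT NPC, and Tfap2b 0.0803 and 12.7 CPM. The libraries fall into 2 stages and 3 lines, so r mostly reflects 6 group means. For Msx1 these were Edil3 (r = 0.997) and Ttc8 (0.994). Edil3 had means of 67.1, 63.8 and 37.7 CPM in WT, dCD and MLL2dTAG NPC, an order like that of Msx1. For Msx2 they were Fat4 (0.995) and Snx33 (0.994), for Ets1 Pls3 (0.996) and Piezo2 (0.993), and for Tfap2b Hoxc8 (0.997) and Trpc4ap (0.995). For Foxd3 they were Polr2b (0.992) and Eif2b5 (0.99), for Ngfr Ecd (0.984) and Zfp977 (0.983), for Tfap2a Asb8 (0.974) and Nrp2 (0.966), and for Sox10 Homer1 (0.964) and Mtfr2 (0.956). Ret had the least close neighbours, Rap1gap (0.936) and Acin1 (0.929), and Rap1gap was at 41, 19.5 and 33.5 CPM in WT, dCD and MLL2dTAG NPC.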

How the data were processed

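Libraries were prepared by TruSeq Stranded mRNA, per the labels. The values are counts of reads for each gene symbol, deposited without normalization, and HTSeq is named in the submitters' processing notes. For these libraries the aligner, genome build and strand setting are not given in the sources used here. Columns were matched to samples by name: 18 libraries in 6 groups of 3 were used, and 18 samples in 8 groups were not analysed here, among them 6 columns of the same table with repeated names. Library totals were 19.4 to 46.0 M (mega counts). Even numbers made up 60.8% to 66.5% of counts from 1 to 10, so halved counts were one alternative.

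The counts were tested with edgeR 4.0.16 (limma 3.58.1, R 4.3.3): filterByExpr by group (20511 genes kept), TMM scaling, 1 mean per group over all 18 libraries (12 residual degrees of freedom, common dispersion 0.00161) and the two-sided quasi-likelihood F test, with p adjusted over all genes tested by the Benjamini-Hochberg method and called under 0.05. SE is the log2 fold change divided by the root of F. Intervals are at 95% and floors (3 counts) cover counting error only. Sensitivity used other scalings, no filter, DESeq2 1.42.0, a replicate block and leaving out each library. The test was run on simulated data in which few genes changed, and in NPC dCD alone. In these data 42.9% to 79.5% of genes were called per comparison, so that run does not give the error rate here.

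The 9 genes were named by role, and of each companion list up to 2 called genes with the highest and 2 with the lowest change per comparison were eligible to be named. Some results of the companion and marker lists are not reported here. The members and lists were chosen with earlier results of these data known. Exon lengths and overlaps came from GENCODE M21 on GRCm38, promoters from RefSeq on GRCm38.p6.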

Additional observations from a re-analysis of the deposited data

Results flagged for a closer look

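For 11 combinations of gene and line, the change against WT differed between the stages in the edgeR test of the interaction, given here as the log2 change in NPC minus that in ESC. In dCD these were Msx1 (-1.48), Foxd3 (-0.96), Ngfr (-1.19) and Ret (-1.31), whose changes were lower in NPC, and Ets1 (0.75), whose change was higher. In MLL2dTAG they were Msx1 (-2.11), Tfap2a (-1.31), Foxd3 (-0.88) and Ngfr (-1.21), lower in NPC, and Ets1 (1.35) and Sox10 (4.05), higher. Msx1 in MLL2dTAG went from a rise in ESC to a fall in NPC. The Sox10 value rests on 4 counts in WT NPC, and it was 3.46 without WT NPC replicate 2 and 4.87 without MLL2dTAG ESC replicate 3. Sox10 passed the filter through its ESC libraries, so its difference between stages is a description. No group was large enough for a test of single outlying libraries.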

How the results depend on the processing

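The number of the 9 genes called stayed within 1.5 times its value in all 9 comparisons under every alternative run. It ranged from 6 to 7 in dCD ESC, 7 to 8 in MLL2dTAG ESC, 5 to 6 in dCD NPC and 7 to 9 in MLL2dTAG NPC. Of the fold changes recomputed, 1180 kept direction and call, 24 lost the call, 23 gained it and 9 changed sign, all 9 of them for changes that were not called. With libraries left out in turn, Ngfr in dCD NPC ranged from -0.106 (without WT NPC replicate 2) to 0.0824, with -0.0495 without dCD NPC replicate 2, and upper quartile scaling gave -9.13e-05. Foxd3 in dCD NPC ranged from -0.0984 (without dCD NPC replicate 2) to 0.194, with -0.0192 without WT NPC replicate 1. Between dCD and MLL2dTAG, Msx2 in ESC ranged from -0.0516 (without dCD replicate 1) to 0.374, with -0.00955 without MLL2dTAG replicate 2. Tfap2b in ESC ranged from -0.0935 (without MLL2dTAG replicate 3) to 1.11, and Tfap2a in NPC from -0.0575 (without dCD replicate 1) to 0.158. The cause was not tested.

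Fitted with a replicate block, the same numbers of genes were called: 6 in dCD ESC, 8 in MLL2dTAG ESC, 5 in dCD NPC and 8 in MLL2dTAG NPC. Libraries with the same number shared no deviation (r from -0.028 to 0.032 over 45 pairs), so the number is not taken as a pairing. Counts of the companion lists moved by over 1.5 times mainly where they were 1 or 2. The larger ones were ligands and partners higher in dCD ESC (7, and 3 in a fit on those groups alone) and relatives higher in the ESC of each line (4, and 2 with halved counts). A fit on the compared groups alone gave no value for Tfap2b within ESC or Sox10 within NPC, which its filter removed. Depth limits Tfap2b in ESC and Sox10 in NPC.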
